A study of Mus musculus with 11 samples.

Results

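The miR-132 and miR-212 cluster was followed in small RNA libraries of mouse spleen CD8+ T cells. Its members are the 4 mature arms mmu-miR-132-3p, mmu-miR-132-5p, mmu-miR-212-5p and mmu-miR-212-3p (mmu, for mouse, is left out from here on), taken by name from a table of 2128 rows, of which 2008 were left once identical duplicates were kept once. The 11 libraries formed 4 groups, with 3 Dirty_VM, 3 Dirty_TN, 3 Clean_VM and 2 Clean_TN libraries (replicates 2 and 3). Dirty and clean are the 2 kinds of mice, and the labels do not define them. The gate for VM cells was CD44hi and that for TN cells CD44lo. In this field VM stands for virtual memory, a memory-like state reached without foreign antigen, and TN for true naive. All groups share magnetic selection on CD8a and a gate for CD4-, CD49dlo and GFP+ cells, called "stamped" in the labels. The strain, genotype, age and sex of the mice, the origin of the GFP mark and whether animals were pooled are not given in the sources used here. Nothing states that replicates came from separate animals, so p-values measure the spread between these libraries.

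miRNAs are short RNAs cut in pairs, a 5p and a 3p arm, from a hairpin precursor, and the arm loaded into an Argonaute protein represses messages that match its seed, bases 2 to 8. miR-132 and miR-212 come from one primary transcript, which the transcription factor CREB induces in neurons after synaptic activity (first described in rat neurons). In mouse T helper 17 cells the cluster is induced through the aryl hydrocarbon receptor. Known targets of the 3p arms include Foxo3, a transcription factor of quiescent cells (mouse heart muscle cells), and Ep300, a histone acetyltransferase that CREB recruits (human endothelial cells).

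The 4 mature sequences are shown first because the readout of the cluster turns on which arm is counted. They are from RefSeq (GRCm38.p6, the assembly named mm10 in the submitters' notes), 5′ to 3′, with the seed in capitals.
miR-132-3p: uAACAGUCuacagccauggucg
miR-212-3p: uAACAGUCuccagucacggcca
miR-132-5p: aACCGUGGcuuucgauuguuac
miR-212-5p: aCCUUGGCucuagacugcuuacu

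The 3p arms shared 1 seed, and their first 9 bases were the same. Over the whole arm 17 of 22 bases matched, and the differences, counted from the 5′ end of miR-132-3p, were A10C, C14U, U17C, U20C and G22A. The seed match in a target is GACUGUU for both. Among 1679 mouse mature miRNAs in the RefSeq table no other carried this seed, and no other miRNA shared the seed of miR-132-5p or of miR-212-5p. The 5p arms matched at 14 of 21 bases when shifted by 1 base and had different seeds.

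Both hairpins lie on the plus strand of chromosome 11 (GRCm38). Mir212 spans chr11:75173388-75173478 and Mir132 spans chr11:75173682-75173747, with 203 bases between them. In GENCODE M21 both fall in intron 1 of the noncoding transcript 1700016P03Rik (chr11:75172560-75177633, 3 exons), which has the same strand. The nearest other genes are Hic1, 3868 bases to the left, and Ovca2, 2194 bases to the right, both on the minus strand. The hairpins follow with the mature arms in capitals.
Mir132 hairpin: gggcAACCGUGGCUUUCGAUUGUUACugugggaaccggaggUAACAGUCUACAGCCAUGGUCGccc
Mir212 hairpin: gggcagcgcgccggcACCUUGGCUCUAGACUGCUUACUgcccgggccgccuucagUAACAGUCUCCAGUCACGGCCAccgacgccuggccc
In the fold of lowest energy (RNAfold) 17 base pairs joined the arms of miR-132 and 16 joined those of miR-212.

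Depth and cell identity were checked over the whole table. Library totals ran from 2614396 to 16312004 estimated counts, and a floor of 3 counts, the one-sided 95% limit of a count of 0, was worth 0.18 to 1.23 CPM (counts scaled to library size, with TMM factors). Floors and intervals cover counting error only. The T lymphocyte list of 5 miRNAs, which includes miR-150-5p, summed to 86900 to 102000 CPM in Dirty_VM, 76100 to 142000 in Dirty_TN, 84200 to 111000 in Clean_VM and 139000 to 147000 in Clean_TN. Of its 5 members 2 fell in VM cells and none rose in the averaged comparison, in which 12.3% of all tested rows fell and 11.4% rose. miR-132 is also abundant in neurons, and the neuronal list (miR-124-3p, miR-9-5p and miR-9-3p) summed to 0.9 CPM or less in every library, with miR-124-3p at 0 in all Dirty_VM, Dirty_TN and Clean_VM libraries. The myeloid list (both arms of miR-223) summed to 1.64 to 2.98 CPM in Dirty_VM, 0.9 to 2.6 in Dirty_TN, 0.268 to 3.61 in Clean_VM and 1.2 to 1.27 in Clean_TN.

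The cluster was a low-level signal. miR-132-3p had 1265 counts over all libraries, 27 to 299 per library, and ranked 234 of 2008 rows by mean level. miR-132-5p had 395 counts (6 to 84 per library), miR-212-5p 166 (2 to 49) and miR-212-3p 20 (0 to 5). All 4 arms had whole counts in the deposited table in every library. The first 3 passed the filter on low counts and were tested among 545 rows, while miR-212-3p did not pass it and was not tested.

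The first question was how the cluster differs between VM and TN cells. All 3 tested arms fell in VM cells on average over dirty and clean mice, as did 12.3% of the 545 tested rows. The VM means of these arms were 0.299 to 0.452 of their TN means in the 2 environments. Together the 4 arms stood at 14.9 ± 1.17 CPM in Dirty_VM (SD, n = 3) against 40.4 ± 6.25 in Dirty_TN (n = 3), and at 9.87 ± 1.26 in Clean_VM (n = 3) against 27.2 ± 2.42 in Clean_TN (n = 2). VM cells thus held 0.368 of the TN level in dirty mice and 0.363 in clean mice. The summed log2 level was 1.45 lower, at 3.59 in VM and 5.04 in TN cells (two-sided exact permutation test within environments, p = 0.005, the smallest that its 200 arrangements allow, adjusted p = 0.02 over 4 such tests). In bulk RNA, fewer cells that hold a miRNA and less of it per cell cannot be told apart.

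miR-132-3p, a 3p arm with the known targets named above, gave the most counts. Its level was 10.4, 11.9 and 9.91 CPM in Dirty_VM replicates 1, 2 and 3, against 28.5, 28 and 24.3 CPM in Dirty_TN. In clean mice it was 7.25, 7.8 and 5.82 CPM in Clean_VM replicates 1, 2 and 3, against 17.1 and 19.6 CPM in Clean_TN replicates 2 and 3. In both environments every VM library lay below every TN library, as held for 9.36% of the 545 tested rows. The fitted log2 change was -1.33 ± 0.23 (SE) in dirty mice (edgeR adjusted p = 0.00199) and -1.4 ± 0.25 in clean mice (adjusted p = 0.00245). Averaged over both it was -1.36 ± 0.17 (adjusted p = 6e-05), and only 17 of 545 rows had a smaller p. The call held without any 1 library (adjusted p at most 3.94e-04).

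miR-132-5p, the partner arm of the same hairpin, was also lower in VM cells. Its level was 3.27, 2.47 and 2.28 CPM in Dirty_VM replicates 1, 2 and 3, against 10.7, 8.08 and 6.83 CPM in Dirty_TN. In clean mice it was 1.61, 2.05 and 2.51 CPM in Clean_VM replicates 1, 2 and 3, against 6.56 and 6.33 CPM in Clean_TN replicates 2 and 3. Its VM libraries also lay below its TN libraries in both environments, a trait of 9.36% of tested rows. Its log2 change was -1.69 ± 0.34 in dirty mice (adjusted p = 0.00603), -1.61 ± 0.37 in clean mice (adjusted p = 0.00985) and -1.65 ± 0.25 averaged (adjusted p = 4.75e-04). Without Clean_TN replicate 2 the change in clean mice no longer passed (adjusted p = 0.086), nor did it without Clean_TN replicate 3 (adjusted p = 0.0536), each of which leaves 1 Clean_TN library.

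miR-212-5p gave most of the counts of the second hairpin. Its level was 1.79, 1.23 and 1.14 CPM in Dirty_VM replicates 1, 2 and 3, against 6.3, 5.19 and 2.44 CPM in Dirty_TN. In clean mice it was 0.805, 1.27 and 0.201 CPM in Clean_VM replicates 1, 2 and 3, against 1.55 and 1.81 CPM in Clean_TN replicates 2 and 3. Its VM libraries lay below its TN libraries within each environment, as for 9.36% of tested rows, but Dirty_VM and Clean_TN libraries overlapped. These values rest on few counts, and the level of 0.201 CPM in Clean_VM replicate 3 was 2 counts with a 95% Poisson interval of 0.0243 to 0.725 CPM. Its averaged log2 change of -1.44 ± 0.47 passed (adjusted p = 0.041), while the changes of -1.75 ± 0.62 in dirty mice (adjusted p = 0.0931) and -1.12 ± 0.7 in clean mice (adjusted p = 0.294) did not. The value in clean mice was -2.08 without Clean_VM replicate 2 (adjusted p = 0.0995) and -0.81 without Clean_VM replicate 3 (adjusted p = 0.42). The averaged call was lost without any 1 of 7 libraries (Clean_TN replicate 2 or 3, Clean_VM replicate 1, Dirty_TN replicate 1 or 2, Dirty_VM replicate 2 or 3), with adjusted p-values of 0.0559 to 0.0996. In dirty mice alone the change passed without Clean_VM replicate 3 (adjusted p = 0.0374) or Dirty_TN replicate 3 (adjusted p = 0.0464).

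miR-212-3p, which shares the seed of miR-132-3p, was close to the limit of detection. Dirty_VM replicates 1, 2 and 3 held 0, 0 and 3 counts, against 5, 0 and 2 in Dirty_TN. Clean_VM replicates 1, 2 and 3 held 0, 1 and 2 counts, against 3 and 4 in Clean_TN replicates 2 and 3. In CPM the groups overlapped in dirty mice, while in clean mice the Clean_VM libraries (0, 0.0975 and 0.201 CPM) lay below the Clean_TN libraries (0.273 and 1.2 CPM), as 24.4% of tested rows did. The floor for the count of 0 in Dirty_VM replicate 2 was 1.23 CPM, above the level of every library with a count, so these levels cannot be ordered at this depth. When rows down to 1 count were tested, its averaged log2 change was -1.89 ± 1.16 (adjusted p = 0.369), with -1.38 ± 1.61 in dirty mice and -2.41 ± 1.67 in clean mice.

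**Figure D1:**
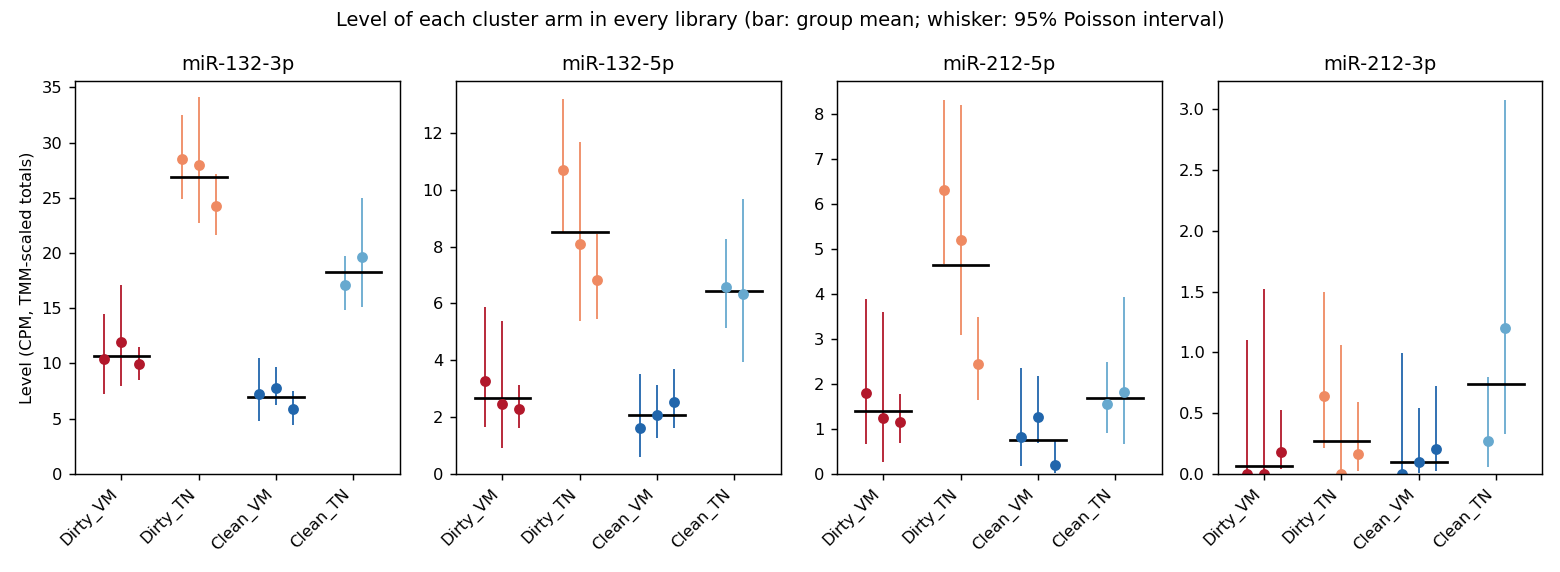
Level of each arm (y axis, CPM on TMM-scaled totals, own scale per panel) in every library of the 4 groups. Points are libraries, whiskers two-sided 95% Poisson intervals of the count (for a count of 0 these reach above the one-sided floor, to 1.52 CPM in Dirty_VM replicate 2) and black bars group means. For miR-132-3p the 3 Dirty_VM libraries lie between 9.91 and 11.9 CPM and the 3 Dirty_TN libraries between 24.3 and 28.5 CPM, while Clean_VM libraries lie between 5.82 and 7.8 CPM and Clean_TN libraries between 17.1 and 19.6 CPM.

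The calls stand against a background of many changed rows. In the averaged comparison 12.3% of the 545 rows fell and 11.4% rose in VM cells, and 9.36% had VM libraries below TN libraries in both environments, as the 3 tested arms did. The converse, VM libraries above TN libraries in both, held for 7.52%. In dirty mice 5.87% of rows fell and 6.24% rose, and the VM libraries lay wholly below the TN libraries for 13.6% and wholly above for 16.9%. In clean mice 7.71% fell and 9.72% rose (42 and 53 rows, but 55 and 40 when scaled by library totals), and the VM libraries lay wholly below for 24.4% and wholly above for 28.3%. The absence of overlap for miR-212-5p in clean mice was thus common to many rows. The median log2 change of all rows was 0.092 in the averaged comparison.

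**Figure D2:**
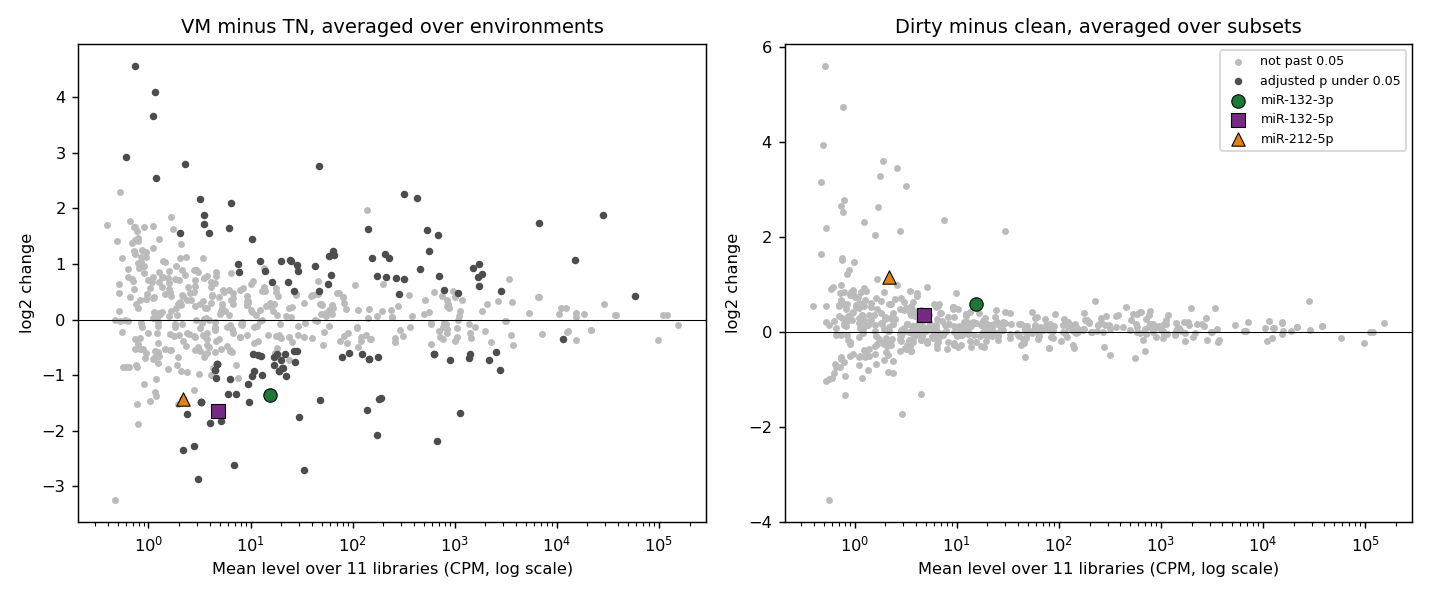
Mean level over the 11 libraries (x axis, CPM, log scale) against the averaged log2 change (y axis) of all 545 tested rows, for VM minus TN on the left and dirty minus clean on the right, with dark points past an adjusted p of 0.05. The 3 tested arms sit at -1.36, -1.65 and -1.44 on the left, and at 0.59, 0.36 and 1.15 on the right, where no row passed.

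The log2 ratios of miR-132-3p were of like size in deep and shallow libraries, on 1 or 2 libraries per side. The 5 libraries with totals under 5000000 were spread over all 4 groups. Among deep libraries the ratio of mean levels, VM over TN, was -1.41 in dirty mice (1 VM and 2 TN libraries). In clean mice it was -1.33 (2 VM and 1 TN). Among shallow ones it was -1.33 in dirty mice (2 VM and 1 TN) and -1.43 in clean mice (1 VM and 1 TN). For miR-132-5p the 4 ratios lay between -1.97 and -1.49, and for miR-212-5p between -1.94 and -1.08. Lists of other blood and vessel cells had members that were higher in VM cells. The erythroid list of 4 summed to 64.1 to 109 CPM in Dirty_VM against 38.1 to 76.2 in Dirty_TN. In clean mice it summed to 61.5 to 137 CPM in Clean_VM against 35.2 to 45.9 in Clean_TN. Of its 3 tested members 1 (miR-486a-5p) had risen in VM cells. miR-451a (averaged log2 change 0.27, edgeR adjusted p = 0.638) and miR-144-5p (1.66, edgeR adjusted p = 0.14) did not pass. miR-144-3p was at 0 in all Dirty_TN libraries, but averaged only 0.239 CPM in Dirty_VM, near the floor. The endothelial and platelet list (both arms of miR-126a) summed to 29.6 to 53 CPM in Dirty_VM against 15.3 to 29.7 in Dirty_TN, and to 21.7 to 47.7 in Clean_VM against 18.4 to 19.3 in Clean_TN, with 1 of 2 members (miR-126a-3p) risen. Among all rows 11.4% rose. Their part in the result was not tested.

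The hairpins differed in which arm was counted. Of the 1660 counts of miR-132, 76.2% were the 3p arm (95% Wilson interval 74.1 to 78.2), and of the 186 counts of miR-212, 10.8% were (7.07 to 16). The 3p share of miR-132 ran from 69.9% to 82.9% over the 11 libraries, above that of miR-212 in every library. For miR-212 it ran from 0% to 50%, and the highest value, in Clean_VM replicate 3, rested on 4 counts. The 2 hairpins share the 3p seed, and miR-132-3p gave nearly all counts with that seed. It had 98.7% of 232 such counts in Dirty_VM and 98.9% of 625 in Dirty_TN. In clean mice it had 98.2% of 168 in Clean_VM and 97.3% of 260 in Clean_TN. These are shares of counts, and shares of molecules were not measured.

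The balance of arms was compared between the subsets. The log2 ratio of 3p to 5p for miR-132 was 1.97 ± 0.3 in Dirty_VM (SD, n = 3) against 1.67 ± 0.22 in Dirty_TN (n = 3), and 1.73 ± 0.47 in Clean_VM (n = 3) against 1.49 ± 0.16 in Clean_TN (n = 2). The averaged difference of 0.27 did not pass (two-sided exact permutation test within environments, p = 0.21, adjusted p = 0.42). For miR-212 the averaged difference was 0.22 and for the log2 ratio of miR-132-3p to miR-212-3p it was -0.1, with p-values of 0.795 and 0.87 by the same exact test (both 0.87 when adjusted). The signs of these last 2 differences changed when single libraries were left out, and with so few miR-212-3p counts a shift in its share could go unseen.

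**Figure D3:**
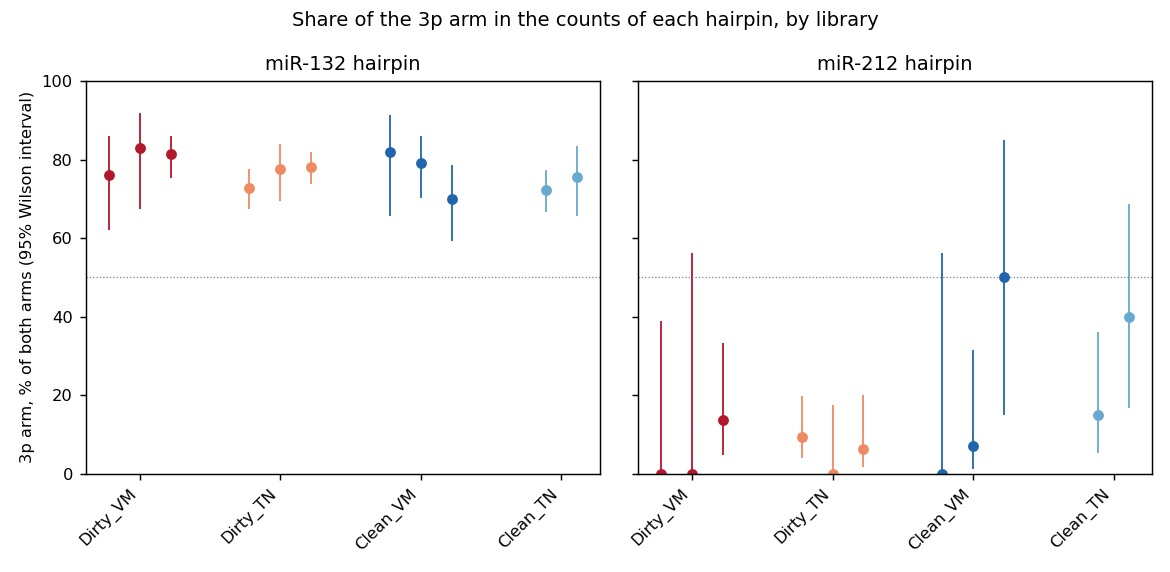
Share of the 3p arm in the summed counts of both arms (y axis, %) for the miR-132 hairpin on the left and the miR-212 hairpin on the right, in every library of the 4 groups, with 95% Wilson intervals. All miR-132 points lie between 69.9% and 82.9%, and all miR-212 points at 50% or below, with wide intervals.

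The next question was how the cluster differs between dirty and clean mice. No row passed by edgeR in TN cells, in VM cells or averaged over both, so the values of the arms are a description. Cluster levels were higher in dirty mice, 1.51-fold in VM cells (14.9 against 9.87 CPM) and 1.48-fold in TN cells (40.4 against 27.2 CPM) for the 4 arms together. The sum is mostly miR-132-3p, and miR-212-3p ran the other way, at 0.604 of the clean level in VM cells and 0.363 in TN cells, on 20 counts in all (log2 change without the filter -0.26 ± 1.77 in VM and -1.29 ± 1.6 in TN cells). miR-132-3p averaged 10.7 ± 1.04 CPM in Dirty_VM against 6.95 ± 1.02 in Clean_VM (SD, n = 3 each), and 26.9 ± 2.3 in Dirty_TN (n = 3) against 18.3 ± 1.74 in Clean_TN (n = 2). For miR-132-3p dirty libraries lay above clean ones without overlap in both subsets, as held for 1.1% of tested rows.

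The fits did not call these differences. For miR-132-3p the log2 change was 0.62 ± 0.23 in VM cells (unadjusted p = 0.019, adjusted p = 0.209 by edgeR) and 0.56 ± 0.25 in TN cells (unadjusted p = 0.0453, adjusted p = 0.559 by edgeR). Averaged over both subsets, a contrast added after the values were seen, it was 0.59 ± 0.17 (unadjusted p = 0.00439, adjusted p = 0.683 by edgeR). Only 2 rows had a smaller p, in a contrast where 5.14% of all rows had an unadjusted edgeR p under 0.05. miR-212-5p had 0.84 ± 0.66 in VM and 1.46 ± 0.69 in TN cells, and miR-132-5p had 0.33 ± 0.35 and 0.4 ± 0.36, with adjusted p-values of 0.559 to 0.813 by edgeR. In VM cells the value of miR-212-5p was 0.43 without Clean_VM replicate 3, 0.48 without Dirty_VM replicate 1 and 1.7 without Clean_VM replicate 2. That of miR-132-5p ran from 0 to 0.59 when single libraries were left out, and in TN cells from 0.08 to 0.34. Dirty_TN libraries lay above Clean_TN libraries for all 3 tested arms, as they did for 14.3% of rows (wholly below for 8.99%). In VM cells miR-132-3p was the only tested arm without overlap, where dirty libraries lay wholly above for 12.1% of rows and wholly below for 8.99%. Averaged over both subsets 0% of rows passed in either direction, and 1.1% had dirty libraries above clean ones in each subset.

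Counts of 0 called rows depended on the tool. At an unadjusted p under 0.05 edgeR had 81 rows in VM cells (14.9%), 38 in TN cells (6.97%), 28 averaged (5.14%) and 93 for the interaction (17.1%). DESeq2 called 22, 3, 1 and 41 rows, and limma-voom 1, 0, 1 and 0. Without Dirty_TN replicate 3 edgeR called 26 rows in VM cells, 28 in TN cells and 73 for the interaction. None of the 3 tested arms had an adjusted p under 0.05 in these comparisons, but DESeq2 gave no adjusted p for miR-132-5p and miR-212-5p in VM cells and in the interaction. The median log2 change of all rows for dirty minus clean was 0.158 in TN and 0.081 in VM cells under TMM scaling, and -0.025 and 0.191 under library totals. miR-132-3p then had 0.37 ± 0.28 in TN and 0.73 ± 0.26 in VM cells, and its libraries still did not overlap.

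The VM minus TN difference itself was compared between the environments. The interaction, dirty less clean, was 0.06 ± 0.34 for miR-132-3p, -0.07 ± 0.51 for miR-132-5p and -0.63 ± 0.96 for miR-212-5p on the log2 scale (edgeR adjusted p of 0.972, 0.98 and 0.828). The errors leave room for a difference, most of all for miR-212-5p, and the sign changed for all 3 arms under 1 or more of the other settings.

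**Figure D4:**
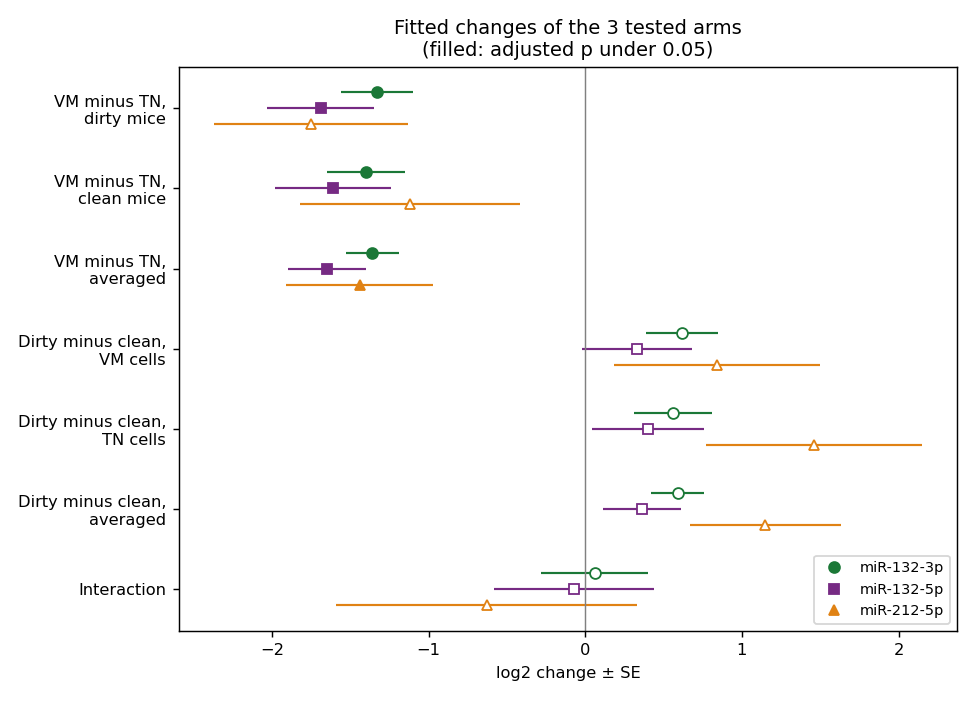
Fitted log2 change ± SE (x axis) of the 3 tested arms in each comparison (y axis), with filled symbols at an adjusted p under 0.05. All 3 arms lie below 0 in the 3 VM minus TN comparisons and above 0 in the 3 dirty minus clean comparisons, where no symbol is filled, and near or across 0 in the interaction.

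The 4 groups could be ordered by miR-132-3p. From low to high the order was Clean_VM, Dirty_VM, Clean_TN and Dirty_TN, and no library overlapped with the next group (7.8 against 9.91 CPM, 11.9 against 17.1 CPM, and 19.6 against 24.3 CPM at the 3 borders). Of 545 rows 9 had their 4 groups in some order without any overlap, and miR-132-3p was the only row with this order. On library totals 2 rows had an order without overlap, and miR-132-3p was again the only one with this order. The count was made after the values of miR-132-3p were seen. For miR-132-5p the order was the same by group means, but neighbouring groups of 1 subset overlapped in VM cells, and for miR-212-5p Dirty_VM overlapped with both Clean_VM and Clean_TN.

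Rows outside the cluster with the profile most like that of miR-132-3p were miR-181b-5p (Pearson's r = 0.953 and 0.95 for its 2 hairpin rows), miR-125a-5p (0.938), miR-181b-1-3p (0.917) and miR-181a-5p (0.914), each over log2 CPM in the same 11 libraries, which fall into 4 groups. Spearman's rho for these 5 rows lay between 0.791 and 0.936. Within the cluster miR-132-5p had r = 0.936 and miR-212-5p r = 0.895. All these rows fell in VM cells. The averaged log2 changes were -1.41 and -1.43 for miR-181b-5p, -2.07 for miR-125a-5p, -2.35 for miR-181b-1-3p and -1.69 for miR-181a-5p (edgeR adjusted p of 0.00133 or lower). The rows outside the cluster were picked for likeness to miR-132-3p, which fell in VM cells. Their fall thus follows from the choice and is no separate result. Of deviations from the group means, those of miR-212-5p correlated with those of miR-132-3p at r = 0.808, those of miR-181b-1-3p at 0.684 and those of miR-125a-5p at 0.404. For miR-132-5p, the partner arm, r was -0.083. With few libraries per group and 6 to 84 counts of miR-132-5p per library, this value cannot tell whether the 2 arms vary together within groups. For the rows of miR-181b-5p and miR-181a-5p the r of deviations lay between 0.031 and 0.053.

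Other miRNAs of T cell activation were counted beside the cluster, from a list of 12 that were all tested. The list was chosen with earlier results of these data known, so its counts are a description and no test against all rows. In VM cells 9 of the 12 rose and none fell in the averaged comparison, where 11.4% of all rows rose. By environment, 6 rose in dirty mice and 9 in clean mice, where 6.24% and 9.72% of all rows rose. In the averaged comparison the median log2 change of the 12 was 0.98, against 0.092 for all rows. Among them miR-21a-5p, induced on T cell activation, had 1.88 ± 0.13, and miR-146a-5p, which restrains NF-kB by targeting Traf6, had 1.06 ± 0.16. For miR-155-5p, which effector T cells require, the change was 0.6 ± 0.15, and it did not pass without Clean_TN replicate 2 (0.57, adjusted p = 0.0532) or replicate 3 (0.53, adjusted p = 0.0602). miR-222-3p had 0.76 ± 0.13, miR-10a-5p 1.22 ± 0.14 and miR-31-5p 1.45 ± 0.35, the last of which did not pass without Clean_TN replicate 3 (adjusted p = 0.0507). In the miR-183 cluster, miR-96-5p had 1.05 ± 0.17, while miR-182-5p had 0.91 ± 0.23 and miR-183-5p 1.1 ± 0.27. The group means of miR-182-5p were 475 CPM in Dirty_VM and 463 in Dirty_TN, but 606 in Clean_VM and 175 in Clean_TN. Those of miR-183-5p were 237 CPM in Dirty_VM and 234 in Dirty_TN, but 319 in Clean_VM and 69.9 in Clean_TN. Thus miR-96-5p and miR-31-5p, at mean levels of 12.4 and 10.4 CPM beside 15.5 CPM for miR-132-3p, rose where miR-132-3p fell. miR-221-3p (0.44 ± 0.18), miR-17-5p (-0.18 ± 0.18) and miR-214-3p (-0.27 ± 0.54) did not pass. Between dirty and clean mice none of the 12 passed by edgeR in VM or TN cells, where 0% of all rows passed. Of 8 miRNAs linked to neuronal activity 1 was tested, miR-128-3p, in 2 hairpin rows. The more abundant row had -0.21 ± 0.21 in VM against TN cells by edgeR (adjusted p = 0.491), with -0.65 in dirty and 0.24 in clean mice, and the other had -0.07 averaged (adjusted p = 0.827).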

How the data were processed

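CD8+ T cells were sorted from spleen to over 95% purity, 10000 cells per sample, and 60 to 100 ng of RNA went into each small RNA library (inserts near 18 to 35 bp), per the labels' protocols. The authors deposited expected counts, that is, estimated counts per mature miRNA and hairpin, of which 88.7% were whole numbers. The submitters' processing notes name the build mm10. Which aligner, counter and miRNA annotation were used is not given in the sources used here.

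Duplicate rows were kept once (120 removed, 0.889% of counts) and counts were rounded. filterByExpr kept 545 rows. edgeR 4.0.16 fitted 1 quasi-likelihood model to the 11 libraries, with TMM scaling and a mean for each group. The Benjamini-Hochberg adjustment ran over the 545 rows (threshold 0.05). Tests were two-sided. The SE is the absolute log2 change over the square root of F. edgeR raises p-values of low counts to those of a Poisson test, so the SE of such rows can look too small beside the p. Ratios used log2 of counts plus 0.5 and an exact permutation test within environments. The procedure was run on simulated data with changes between VM and TN cells only and the same dispersion for all rows. That run does not cover the dirty minus clean comparisons or the interaction. Alternatives used DESeq2 1.42.0, limma-voom (limma 3.58.1), other scalings, filters and terms, and left out single libraries. Folds used RNAfold 2.7.2.

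All members were described. The 5 rows most like miR-132-3p were those of highest Pearson correlation on log2 CPM with a prior count of 2. Listed miRNAs were named when they passed the averaged VM comparison or were the 2 most abundant. The other three of the activation list were named after their values were seen. The members and lists were chosen with earlier results of these data known.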

Additional observations from a re-analysis of the deposited data

How the results depend on the processing

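The calls of miR-132-3p and miR-132-5p in the averaged VM minus TN comparison held under every alternative that could test them, with log2 changes of -1.51 to -1.37 and of -1.84 to -1.58. The filter of 10 CPM in 2 libraries removed miR-132-5p and miR-212-5p. miR-212-5p kept its direction and passed under 11 of 19 alternatives. Counts of rows past the threshold moved by over 1.5 times as follows, and the cause was not tested. For dirty minus clean in VM cells, 0 rows became 22 by DESeq2, 1 by limma-voom, 2 under library totals, 16 with no filter and 2 with the stricter filter. For TN cells they became 3 by DESeq2 and 4 with no filter, averaged over subsets 1 by DESeq2, by limma-voom and with no filter, and for the interaction 41 by DESeq2, 30 with no filter and 16 with the stricter filter. Leaving out single libraries gave 33 to 120 rows in clean mice against 95 (34 without Clean_TN replicate 2, 33 without Clean_TN replicate 3, 61 without Clean_VM replicate 3), 42 (without Dirty_VM replicate 3) to 94 in dirty mice against 66, 0 to 28 in TN cells, 0 to 26 in VM cells and 0 to 73 for the interaction, the last 3 highs without Dirty_TN replicate 3. Under library totals the split in clean mice moved to 40 higher and 55 lower, against 53 and 42, and the median of all rows to -0.127, against 0.082.

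Near 0, directions turned. The interaction of miR-132-5p became 0.25 under library totals and ran from -0.32 to 0.27 without single libraries, that of miR-132-3p became -0.01 with the depth class as a term and ran from -0.07 to 0.3, and that of miR-212-5p ran from -0.95 to 0.34. Dirty minus clean in VM cells ran from 0 to 0.59 for miR-132-5p. The arm ratio of miR-212 ran from -0.28 to 0.67, and the ratio of miR-132-3p to miR-212-3p from -0.57 to 0.37. Whether the replicate number of the titles pairs the libraries cannot be told from groups of 2 or 3 libraries. For VM and TN libraries of the same number, deviations correlated at -0.46, 0.24 and 0.42 in dirty mice (replicates 1, 2 and 3). In clean mice the values were 0.25 and -0.26 (replicates 2 and 3), where the 2 Clean_TN libraries deviate by equal and opposite amounts. With the replicate number as a block, 106 rows passed averaged (against 129) and 56 in clean mice (against 95). With a block per environment and number miR-212-5p (adjusted p = 0.0868) and miR-155-5p (0.54, adjusted p = 0.056) did not pass, while miR-132-3p and miR-132-5p did. Depth limited miR-212-3p most, with 20 counts in all.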
